A study of Homo sapiens with 32 samples.

Results

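The regions described here carried an HNF4α peak with opposite isoforms in a pair of pancreatic ductal adenocarcinoma cell lines. They were selected on the peak lists of chromatin immunoprecipitation sequencing (ChIP-seq) libraries of Panc10.05 and BxPC3. Overlapping peaks of the 8 lists of these lines were merged, and a region was kept when it held a peak of both Panc10.05 P2-α8 lists and both BxPC3 P1-α2 lists. It was also required to hold no peak of either Panc10.05 P1-α2 list or either BxPC3 P2-α8 list. Of 68655 merged regions, 570 met the rule (0.83%), and they are called opposite-preference regions below. The name describes membership of lists and not a measured ratio of binding.

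Doxycycline was used in cultured human cells to induce HNF4α, with the isoform named by the genotype as P1-α2 or P2-α8. Panc10.05 cells carrying P1-α2 received 25 ng/mL and those carrying P2-α8 received 12.5 ng/mL, so isoform and dose cannot be told apart in that line. BxPC3 cells received 500 ng/mL for either isoform. In the BxPC3 P2-α8 libraries the sample title gives P1-a8 and the genotype gives P2-a8, and the latter was followed. In these 8 libraries the antibody was PP-H1415 (Perseus Proteomics), which recognises every HNF4α isoform and is called pan-HNF4α. Another line, AsPC1, was labelled with guide RNAs named sgP1, sgP2 and a control named sgNC, without a dose of doxycycline. Each AsPC1 genotype had pan-HNF4α libraries, and a P1-specific antibody (PP-K9218) was added for sgP2 and its control. Each group had 2 libraries, described only as replicates, so the spread between them may be technical. Whether a line was 1 clone is not given in the sources used here, and no expression data were used here to check the lines or the induction.

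HNF4α is a nuclear receptor that binds DNA as a homodimer at direct repeats of a hexamer. A pair of promoters gives isoforms that differ at the N-terminus and share the DNA-binding domain. In pancreatic cancer the protein is known as a marker of the classical, epithelial subtype, and in liver and gut it controls metabolic genes.

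The lists were of unequal length. The BxPC3 P1-α2 lists held 41808 and 33737 peaks, and the BxPC3 P2-α8 lists held 12681 and 14666. In Panc10.05, the P2-α8 lists held 39111 and 33646 peaks and the P1-α2 lists 24828 and 34146. In BxPC3 the group a region had to be in thus had the longer list in both replicates. In Panc10.05 it did in the first replicate, while the second P1-α2 list was longer than the second P2-α8 list. Read depth is unknown. Every Panc10.05 and BxPC3 list began just above a −log10 q of 8, and every AsPC1 list just above 2. By their library names the lines fall in separate series, so the line and its series cannot be told apart. Whether these series were separate sequencing runs is not known here.

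Sequence could be shown for the regions at gene starts, because RefSeq promoter windows (GRCh38.p14) cover them. Among the opposite-preference regions, 21 windows of 250 bases before a RefSeq gene start were overlapped, out of 34943 windows in all. A set of 5 is printed 5′ to 3′ on the gene's strand, and marked letters are more frequent in it than among the 21 windows. Capitals mark the letters AGGTCA, a nuclear receptor hexamer, or CAAAGT, the first part of the HNF4 element CAAAGTCCA, on either strand (TGACCT and ACTTTG on the other). NPR3 (chr5:32710399-32710648, plus strand) had the strongest peaks of the protein-coding starts. LOC105374406 (chr4:37760797-37761046, plus) had its median summit 4 bp after the start. DAO (chr12:108879842-108880091, plus) and IRAK4 (chr12:43758701-43758950, plus) show the CAAAGT letters. LIPE (chr19:42423586-42423835, minus) belongs to a region bound in every AsPC1 pan-HNF4α list, and its window holds none of these letters. In all 5 the median summit lay after the start, outside the printed window. It was 52 bp after the start at NPR3, 75 bp at DAO, 169 bp at IRAK4 and 371 bp at LIPE. The printed bases are therefore not the sequence under the summits.
NPR3: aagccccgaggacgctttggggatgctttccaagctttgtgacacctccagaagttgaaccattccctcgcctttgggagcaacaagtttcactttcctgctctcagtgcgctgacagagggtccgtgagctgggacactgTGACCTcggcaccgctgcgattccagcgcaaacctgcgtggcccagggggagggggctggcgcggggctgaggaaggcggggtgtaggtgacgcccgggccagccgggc
LOC105374406: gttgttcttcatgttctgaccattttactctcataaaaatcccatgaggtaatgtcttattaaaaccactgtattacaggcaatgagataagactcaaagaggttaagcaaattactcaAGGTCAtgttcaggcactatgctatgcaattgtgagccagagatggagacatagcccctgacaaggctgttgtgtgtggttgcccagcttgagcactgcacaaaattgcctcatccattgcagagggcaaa
DAO: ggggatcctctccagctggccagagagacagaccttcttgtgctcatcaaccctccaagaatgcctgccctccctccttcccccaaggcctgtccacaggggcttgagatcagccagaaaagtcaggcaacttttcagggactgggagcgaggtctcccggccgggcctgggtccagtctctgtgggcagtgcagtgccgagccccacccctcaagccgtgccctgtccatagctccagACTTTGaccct
IRAK4: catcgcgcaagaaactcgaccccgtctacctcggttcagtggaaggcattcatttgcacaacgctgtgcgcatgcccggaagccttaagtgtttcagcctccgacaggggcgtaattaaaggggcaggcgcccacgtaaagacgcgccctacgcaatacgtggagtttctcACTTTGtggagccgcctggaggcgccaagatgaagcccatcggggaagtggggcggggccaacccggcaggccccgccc
LIPE: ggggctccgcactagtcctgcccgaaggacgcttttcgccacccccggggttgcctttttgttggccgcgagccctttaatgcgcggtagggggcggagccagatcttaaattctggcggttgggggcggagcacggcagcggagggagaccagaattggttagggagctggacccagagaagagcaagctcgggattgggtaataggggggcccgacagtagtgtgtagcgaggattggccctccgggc

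The 9 letters of CAAAGTCCA, searched on both strands, occurred in 0 of the 21 windows. They occurred in 0.326% of all windows of this length and in 3.34% of the 509 windows overlapped by regions found in all 8 lists. AGGTCA occurred in 2 of the 21 windows, in 12.1% of all windows and in 11.6% of the windows of regions in all 8 lists. CAAAGT, which lies within CAAAGTCCA, occurred in 6 of the 21, against 10.3% and 17.5%. TGANTCA, the letters of an AP-1 element, occurred in 0 of the 21, against 4.22% and 10.6%. A match is only a run of letters, and windows can reach beyond the peak. With 21 windows these counts are descriptions. Windows of chromosome 8 were not used here.

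How the regions arose from each line shows how much of the set each list supplied. In Panc10.05, 5365 of the 68655 regions (7.81%) were in both P2-α8 lists and neither P1-α2 list, and 1787 (2.6%) the other way round. In BxPC3, 13236 (19.3%) were in both P1-α2 lists and neither P2-α8 list, and 61 (0.0889%) the other way round. Crossing the lines gave 570 opposite-preference regions and 0 of the mirror kind, with P1-α2 in Panc10.05 and P2-α8 in BxPC3. P1-α2 in both lines accounted for 364 regions, and P2-α8 in both lines for 2. Regions in all 8 lists numbered 5630. These counts were made by the rule on lists of unequal length, and no test was made of them.

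The state of a region in Panc10.05 was set beside its state in BxPC3. Of the 5365 regions split towards P2-α8 in Panc10.05, 3517 had no BxPC3 peak and 1848 had at least 1. Of those 1848, 30.8% were split towards P1-α2 in BxPC3, which are the 570. The share was 33.7% for the 1080 regions split towards P1-α2 in Panc10.05, 25.3% for the 14925 regions in all 4 Panc10.05 lists, 26.9% for the 19466 regions in no Panc10.05 list, and 34.5% for the 9553 regions in any other combination of Panc10.05 lists. Among regions with a BxPC3 peak, the BxPC3 split towards P1-α2 was therefore met at 25.3% to 34.5% in these 5 Panc10.05 states. The opposite-preference regions made up 10.6% of the Panc10.05 P2-α8 regions and 4.31% of the BxPC3 P1-α2 regions.

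Their peaks were of middling to low strength within the lists. On a scale where 100 is the strongest peak of a list by the authors' fold enrichment, the median percentile was 47.2 and 41.9 in the BxPC3 P1-α2 lists and 40.9 and 34.6 in the Panc10.05 P2-α8 lists. Regions in all 8 lists stood at 88.9, 84.6, 81.7 and 80.9 in the same lists. The 364 regions of P1-α2 in both lines, which the rule did not take, stood at 51.4 and 44.6 in the BxPC3 P1-α2 lists. Median fold enrichment of the opposite-preference regions was 11.1 and 9.37 in BxPC3 and 11.1 and 9.83 in Panc10.05. Their merged width ran from 330 to 1640 bp with a median of 537.5 bp, and 564 of 570 held 1 peak in each required list.

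**Figure D1:**
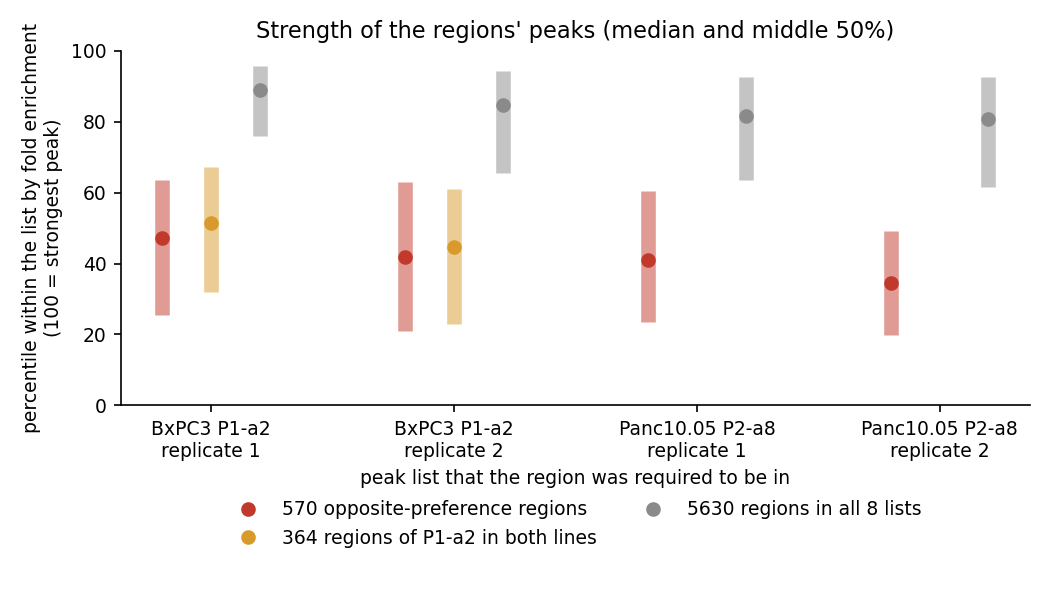
Percentile of the regions' peaks (vertical axis, 100 is the strongest peak of the list) in each of the 4 lists that chose them (horizontal axis). Points are medians and bars the middle 50% of regions; the opposite-preference medians lie between 34.6 and 47.2, and those of the 5630 regions in all 8 lists between 80.9 and 88.9. The 364 regions of P1-α2 in both lines are drawn only in the BxPC3 lists.

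Strength and the missing isoform went together in each line. The 29442 regions in both Panc10.05 P2-α8 lists were cut into 4 equal bins by mean percentile. From the weakest bin to the strongest, 35.1%, 23.04%, 12.1% and 2.65% held no P1-α2 peak, and the bins supplied 268, 195, 92 and 15 opposite-preference regions. In BxPC3, 71.2%, 58.9%, 41.9% and 12.4% of the 28705 regions in both P1-α2 lists held no P2-α8 peak. Those bins supplied 221, 187, 130 and 32 opposite-preference regions. In both lines the count fell with each step up in strength, and the strongest bin of Panc10.05 gave the fewest.

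**Figure D2:**
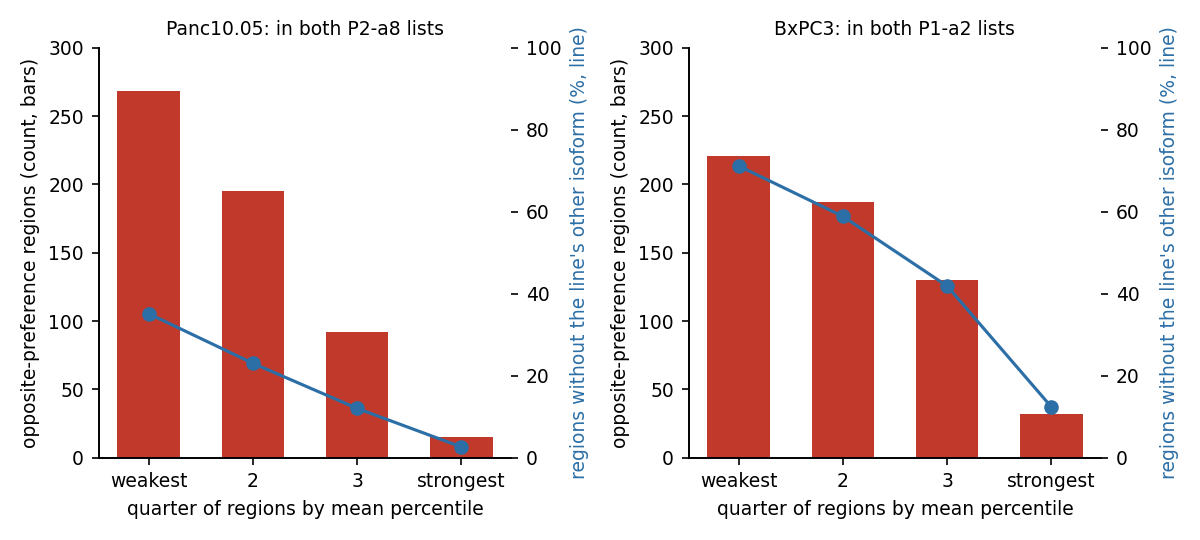
Opposite-preference regions (bars, count, left axis) and the share of regions without a peak of the line's other isoform (line, percent, right axis) by bin of peak strength (4 equal bins by mean percentile), in Panc10.05 (left panel) and BxPC3 (right panel). Bars fall from 268 to 15 and from 221 to 32 between the weakest and the strongest bin.

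Every required peak passed its list's q-value threshold by being in the list, so only its distance above that threshold is described. The lowest −log10 q over a region's 4 required peaks ran from 8.54 to 54.4 with a median of 19.1. It was under 10 in 8 regions and 20 or more in 248. Just outside the rule, 222 and 372 regions lacked only the BxPC3 P1-α2 peak of replicate 1 or 2, and 207 and 482 lacked only that of Panc10.05 P2-α8. A further 79 and 224 regions were kept out by a peak of BxPC3 P2-α8 replicate 1 or 2 alone, and 87 and 884 by a peak of Panc10.05 P1-α2 replicate 1 or 2 alone. The second Panc10.05 P1-α2 library, with 34146 peaks, thus kept out the most regions by itself, and 1455 regions met the rule without it. The median −log10 q of those 884 peaks was 31.1.

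The peaks that a region had to lack lay at widely varying distances, which were not compared with those of other regions. The nearest peak of any of the 4 barred lists lay a median of 11019 bp from the region, with 292 regions over 10 kb away and 43 within 1 kb. By list, the median distance was 39.8 and 29.8 kb for BxPC3 P2-α8 and 19.4 and 15.1 kb for Panc10.05 P1-α2. These 43 regions stood beside a peak of the isoform they were said to lack, in one line or the other.

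The number of regions and which regions they were both changed with list length. Kept to the 12681 strongest peaks each by fold enrichment, the 8 lists gave 37 opposite-preference regions and 38 mirror regions. P1-α2 in both lines then gave 99 regions and P2-α8 in both lines 45. Only 3 of the 570 regions were still among the 37 (0.526%). The trimming ranked peaks by fold enrichment, on which most of the 570 stood lower. Within the 12681 strongest peaks lay 94 and 145 of the 570 in the BxPC3 P1-α2 lists. In the Panc10.05 P2-α8 lists 94 and 69 did, so most of the 570 had to drop out. With 8000 peaks a list, a setting added after the data were seen, there were 18 against 23, with 1 of the 570 among the 18. With 4000 there were 10 against 19, with 0 of the 570. When lists were made equal only within each line, 50 opposite-preference and 71 mirror regions were found, and 26 of the 570 were among them. The excess of the opposite kind over its mirror was thus present with the lists as deposited, and absent at each of these equal lengths.

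**Figure D3:**
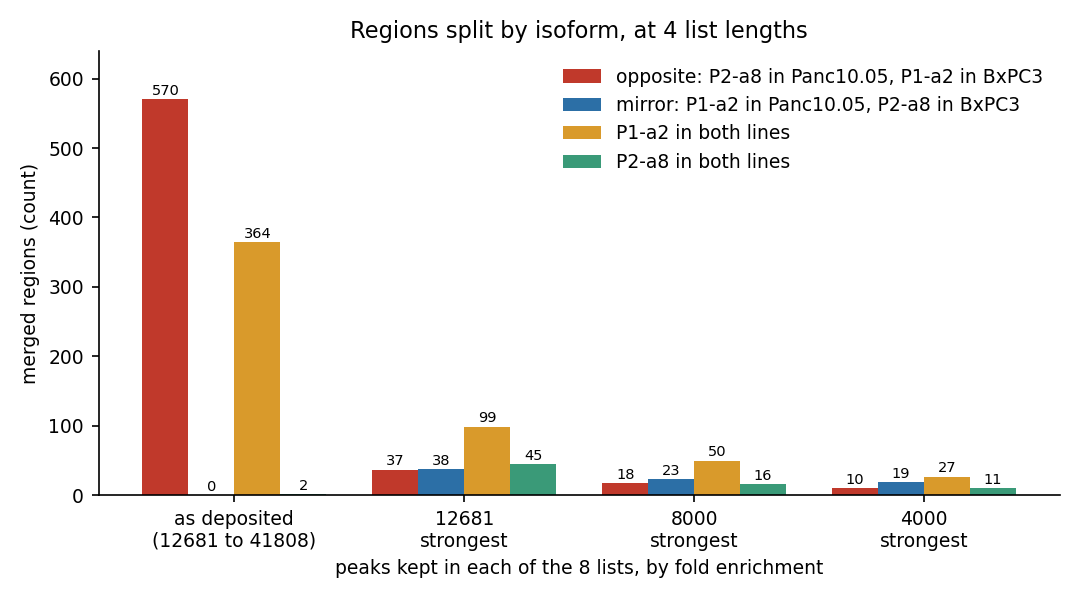
Merged regions (vertical axis, count) of 4 kinds with the lists as deposited and with each of the 8 lists kept to its 12681, 8000 or 4000 strongest peaks by fold enrichment (horizontal axis). Opposite and mirror regions number 570 and 0 as deposited and 37 and 38 at 12681 peaks.

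In most regions the lines placed their peaks close together. Between the first replicates of each line the summits of a region lay a median of 34 bp apart, and 84.2% were within 100 bp. Over the 4 pairs of lists from different lines, medians ran from 34 to 40 bp. Within a line, the replicates were 34 bp (BxPC3) and 33 bp (Panc10.05) apart. Summits of regions in all 8 lists were 27 bp apart between the first replicates. Over the 4 required lists the summits of a region spanned a median of 74.5 bp, and over 300 bp in 37 regions. In 561 of the 570 regions every pair of the 4 lists overlapped directly, so few were joined through another peak.

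Strength in one line carried little over to the other. Across the 570 regions, Spearman's rho of percentiles between replicates was 0.40 in BxPC3 and 0.42 in Panc10.05. Between lines it was 0.11 to 0.15, against 0.29 to 0.40 over the 5630 regions in all 8 lists, where replicates gave 0.62 and 0.75. The points share their libraries, and the narrower range of strength in the chosen regions was not allowed for. By the mean of its 2 lists, a region passed the 50th percentile in both lines in 67 cases, in Panc10.05 alone in 83, in BxPC3 alone in 161 and in neither in 259. In all 4 lists, 27 regions passed the 50th percentile and 1 passed the 75th.

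That 1 region was the strongest by mean percentile, at 82.5. It lay at chr2:118308672-118309095 (hg38), outside genes and 198 kb from INSIG2, which encodes an endoplasmic reticulum protein that holds back sterol synthesis. Its fold enrichment was 17.9 and 16.5 in BxPC3 P1-α2 and 21.6 and 16.9 in Panc10.05 P2-α8. The lists of the other isoforms came no closer than 4368 bp. All 4 values lay well above the medians of the set.

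The next in strength lay near genes of varied function. The region 4010 bp from SWI5, a homologous recombination factor, was at chr9:128292528-128293469 with fold enrichments of 19.6 and 18.0 in BxPC3 and 17.6 and 15.8 in Panc10.05. The region 3813 bp from the homeobox gene DPRX was at chr19:53597043-53597558, with 22.1 and 17.0 in BxPC3 and 16.4 and 15.9 in Panc10.05. In both regions the BxPC3 values were above the Panc10.05 values without overlap. The lists were called separately, so a gap in fold enrichment between lines is not a measured difference in binding, here and below. The region inside GPAM, which encodes the mitochondrial acyltransferase that opens triglyceride synthesis, was at chr10:112226584-112228060. It gave 12.1 and 17.9 in BxPC3 and 27.9 and 13.6 in Panc10.05. The peak of 27.9 had its summit 791 bp from the nearest of the other 3 summits, so it is not a replicate value of the same site.

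In other strong regions the 4 values were further apart. The region 8584 bp from CD300LD, a myeloid receptor gene, had the highest Panc10.05 values named here (31.9 and 34.2) and 19.3 and 7.69 in BxPC3. The region inside CCN4, which encodes a matricellular protein downstream of Wnt, had 30.2 and 20.4 in Panc10.05 and 12.9 and 11.7 in BxPC3. The region 2218 bp from the cancer-testis gene CSAG1 had 20.2 and 17.0 in BxPC3 and 11.2 and 17.6 in Panc10.05. The other 3 of the 10 strongest lay inside OR6A2 (an olfactory receptor gene), inside SMUG1 (a uracil-DNA glycosylase gene) and 154317 bp from NEFM (a neurofilament gene). Their fold enrichments ran from 11.98 to 20.1. None of these 10 regions had a peak in any AsPC1 pan-HNF4α list, nor did 91.1% of the 570 or 73.2% of all merged regions.

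At the other end, the regions with the lowest mean percentile lay inside SAMD12, 20641 bp from EMP1 and 1816 bp from ELMO2. Their mean percentiles were 6.91, 5.58 and 5.58, with fold enrichments between 4.47 and 7.59 in the 4 required lists. The EMP1 and ELMO2 regions had a peak of a barred list 1593 and 1731 bp away.

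Few of the regions lay at gene starts. Distance was measured from the middle of a region to the nearest start of a protein-coding gene, for the 523 regions outside chromosome 8. Of these, 20 (3.82%; exact binomial 95% interval 2.35% to 5.84%, counting error only) were within 1 kb, against 7.77% of all merged regions. The share was 8.74% for regions split towards P2-α8 in Panc10.05 with no BxPC3 peak, and 2.23% for those split towards P1-α2 in BxPC3 with no Panc10.05 peak. The opposite-preference regions lay between these. Within 10 kb the shares were 20.3% of the opposite-preference regions and 23.1% of all regions, and 49.8% and 49.5% lay inside a protein-coding gene.

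NPR3, the clearance receptor of natriuretic peptides, had the strongest region at a gene start. The region chr5:32710028-32710969 gave a fold enrichment of 10.11 and 14.5 in BxPC3 and 22.7 and 14.9 in Panc10.05, with its median summit 52 bp after the start. A further pair of opposite-preference regions had NPR3 as their nearest gene, at chr5:32790944-32791464 inside the gene and at chr5:32852445-32852878, 60.9 kb outside it. Their fold enrichments ran from 7.11 to 13.4. None of the 3 had an AsPC1 pan-HNF4α peak, as was so for 91.1% of the 570 and 73.2% of all merged regions.

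DAO encodes D-amino acid oxidase. The region at its start (chr12:108879909-108880446) gave 15.7 and 15.2 in BxPC3 and 12.7 and 4.93 in Panc10.05, so the second Panc10.05 library was far below the other 3. It had a peak in 4 of 6 AsPC1 pan-HNF4α lists. PDSS1 encodes a subunit of the enzyme that builds the coenzyme Q side chain. Its region (chr10:26696841-26697969) gave 15.8 and 13.3 in BxPC3 and 8.36 and 8.47 in Panc10.05, and was in 5 of 6 AsPC1 lists. The peak of 8.36 had its summit 847 bp from the nearest of the other 3, and without Panc10.05 P2-α8 replicate 2 this region no longer met the rule. IRAK4, a kinase of Toll-like and interleukin-1 receptor signalling, had its higher values in Panc10.05. Its region (chr12:43758873-43759467) gave 8.12 and 8.01 in BxPC3 and 18.3 and 10.0 in Panc10.05, and was in no AsPC1 pan list. The regions at PRRG4 and at FGF23, the phosphate-regulating hormone gene, had fold enrichments from 9.01 to 15.9, with 1 and 0 AsPC1 lists.

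AsPC1 gave readouts that the rule did not use. Most opposite-preference regions had no AsPC1 pan-HNF4α peak: 519 were in none of the 6 lists, 51 were in at least 1 (8.95%, against 26.8% of all merged regions) and 6 were in all 6 (1.05%, against 9.52%). By library, the share with a peak was 7.37% and 3.86% in sgNC, 3.51% and 2.11% in sgP1, and 3.16% and 5.44% in sgP2. Over all merged regions these shares were 24.2% and 16.9%, 15.2% and 13.4%, and 14.3% and 17.1%. The sgNC replicates spanned a range that overlapped the sgP2 values. Both lists of a group held 19 of the 570 in sgNC (3.33%, against 16.1% of all merged regions). In sgP1 both held 9 (1.58%, against 11.5%), and in sgP2 14 (2.46%, against 12.7%).

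The guides were compared over these shares with a two-sided exact permutation test, for which 2 against 2 libraries allow no p below 0.333. The mean share was 2.81% ± 0.99 (SD, n = 2) in sgP1 and 5.61% ± 2.48 (SD, n = 2) in sgNC, a difference of -2.81 percentage points (exact permutation p = 0.333). In sgP2 it was 4.30% ± 1.61 (SD, n = 2), a difference of -1.32 from sgNC (exact permutation p = 0.667) and of -1.49 between sgP1 and sgP2 (exact permutation p = 0.667). Over all merged regions the same 3 differences were -6.28, -4.87 and -1.40 percentage points. After Benjamini-Hochberg adjustment over 4 comparisons, p was 0.667 throughout. Without sgNC replicate 1, the difference between sgP2 and sgNC turned to 0.439 percentage points. With the AsPC1 lists kept to one length, both guides differed from sgNC by -0.439 percentage points and not from each other.

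With the P1-specific antibody, sgP2 libraries had a peak at 6 of 570 regions (1.05%) and at 1 (0.175%), against 6.02% and 4.99% of all merged regions. Both sgNC libraries had 0 of 570, which allows a share of up to 0.526% each. No region was in both sgP2 lists, against 3.91% of all merged regions, nor in both sgNC lists, against 0.267%. The difference of 0.614 percentage points had an exact permutation p of 0.333. The sgNC lists were short, with 697 and 260 peaks against 5200 and 3916. With the lists of this antibody kept to the shortest length, the difference was 0.

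In each AsPC1 pan-HNF4α library the opposite-preference regions were bound less often than several other kinds of region, a comparison added after the data were seen. Over the 6 pan-HNF4α lists their share was 4.24% ± 1.88 (SD, n = 6), against 16.8% ± 3.88 for all merged regions and 53.7% ± 5.76 for regions in all 8 lists. For the 364 regions of P1-α2 in both lines it was 29.1% ± 5.77. No comparison at matched peak strength was made, and the regions in all 8 lists had stronger peaks. The opposite-preference share was the lower in 6 of 6 libraries in each of these 3 comparisons. An exact sign-flip permutation over libraries gave p = 0.0312, the smallest that 6 libraries can give, and 0.0521 after Benjamini-Hochberg adjustment over 5 comparisons, which misses 0.05. The libraries come from 1 line under sgNC, sgP1 and sgP2, and the regions are the same in each. The sign-flip test therefore describes agreement between these libraries, and not between lines or sets of regions. Regions in all 8 lists had to hold a peak of every Panc10.05 and BxPC3 list. The opposite-preference regions had to lack a peak of 4 of them. No conclusion is therefore drawn from the p-value against the regions in all 8 lists.

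Regions bound in a single line gave shares close to those of the opposite-preference set. Regions split towards P2-α8 in Panc10.05 with no BxPC3 peak averaged 4.45% ± 2.86 (SD, n = 6), with the opposite-preference share lower in 2 of 6 libraries (exact sign-flip permutation p = 0.906). The libraries' differences from that class ran from -2.75 to 1.15 percentage points. Regions split towards P1-α2 in BxPC3 with no Panc10.05 peak averaged 5.56% ± 1.73, with the opposite-preference share lower in 5 of 6 (exact sign-flip permutation p = 0.0625, adjusted 0.0781). Those differences ran from -2.01 to 0.223 percentage points.

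**Figure D4:**
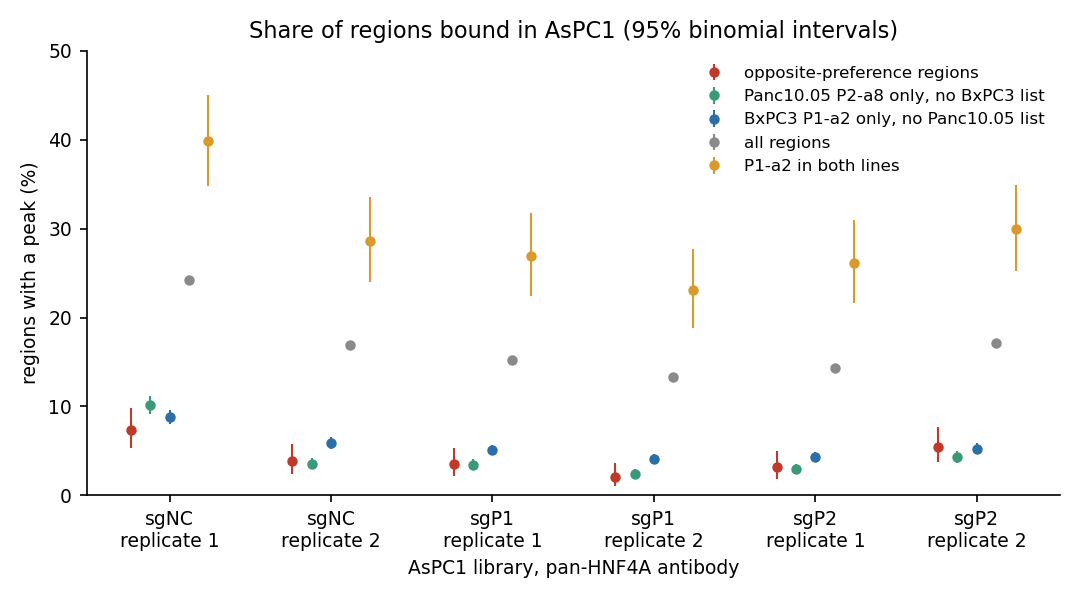
Share of regions with a peak (vertical axis, percent) in each AsPC1 pan-HNF4α library (horizontal axis). Points are 5 kinds of region with exact binomial 95% intervals (counting error only); the opposite-preference regions lie between 2.11% and 7.37%, and the regions of P1-α2 in both lines between 23.1% and 39.8%.

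The 6 regions found in every AsPC1 pan-HNF4α list lay in or near CACNA1I and ITPR1 (calcium channels of the plasma membrane and the endoplasmic reticulum), TCIRG1 (a proton pump subunit), LIPE (hormone-sensitive lipase), KLHL25 (a ubiquitin ligase adaptor) and GPRC5C (an orphan receptor). They were not the strong ones: their mean percentiles in the required lists ran from 17.1 to 38.4. The ITPR1 region, chr3:4827549-4827957, gave 11.2 and 11.2 in BxPC3 and 9.06 and 7.46 in Panc10.05. Its AsPC1 percentiles were 83.9 and 68.9 in sgNC, 66.5 and 89.2 in sgP1, and 81.1 and 86.4 in sgP2. It was also in 1 sgP2 list of the P1-specific antibody, at the 62.2 percentile, and a barred peak of the induced lines lay 761 bp from it. The LIPE region, chr19:42422995-42423650, gave 7.05 and 4.67 in BxPC3 and 9.40 and 12.3 in Panc10.05. The summit of the first Panc10.05 library lay 281 bp from the nearest other. The region's AsPC1 percentiles were 67.9 and 56.9 in sgNC, 39.8 and 39.6 in sgP1, and 1.48 and 8.12 in sgP2. Ranks within separately called lists were given as a description, and a change between the guides was not tested.

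The regions were unevenly spread over chromosomes. Chromosome 12 held 48 (8.42%, against 5.47% of all merged regions) and chromosome 8 held 47 (8.25% against 5.28%). Chromosome 15 held 29 (5.09% against 3.23%) and chromosome 22 held 17 (2.98% against 1.66%). Chromosome 2 held 22 (3.86% against 7.25%) and chromosome 21 held 2 (0.351% against 0.921%). The split regions of a single line leaned likewise on chromosome 12 in Panc10.05 (8.01%) and on chromosome 15 in BxPC3 (4.28%). DNA copy number in the lines was not used here.

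**Figure D5:**
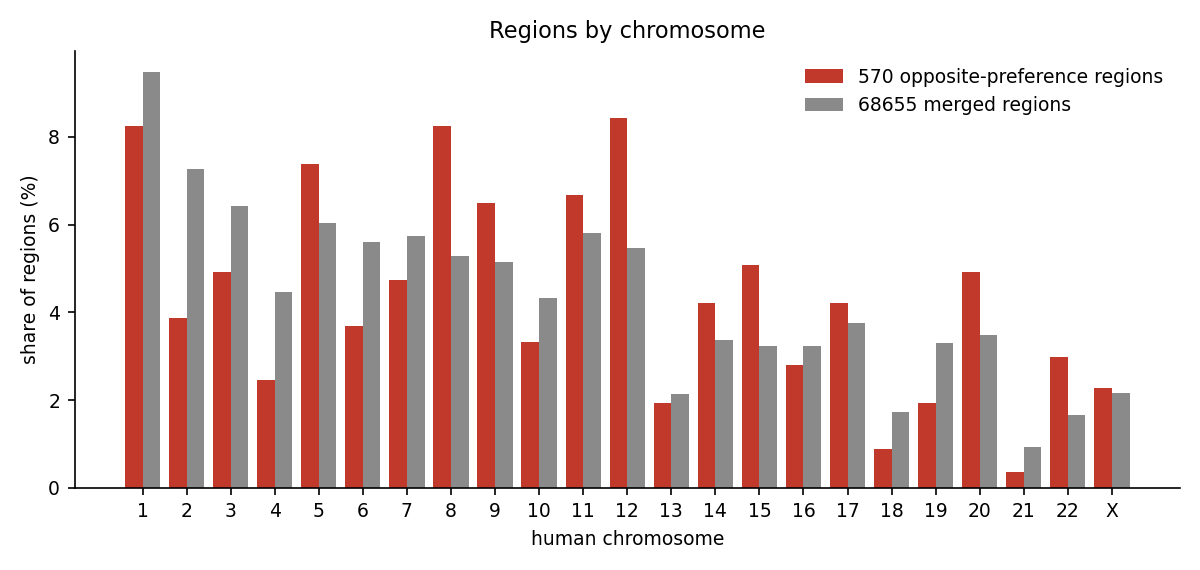
Share of the 570 opposite-preference regions and of the 68655 merged regions (vertical axis, percent) on each chromosome (horizontal axis, Y left out as it held 0 of the 570). Chromosomes 8 and 12 hold 8.25% and 8.42% of the opposite-preference regions and 5.28% and 5.47% of all regions.

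The regions were spread over many genes. The nearest protein-coding genes numbered 528, of which 492 had 1 region, 30 had 2 and 6 had 3. Among those with 3 were NPR3, ALX4 (a transcription factor of limb and skull), ST3GAL1 (a sialyltransferase) and LOC107984449. A total of 56 regions lay within 50 kb of another. Near LOC107984449, the 3 regions lay in a stretch of chromosome 12 between 127285003 and 127326043, each over 100 kb from the gene, with fold enrichments from 9.54 to 24.1.

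Within 50 kb of its span, 910 of 20033 protein-coding genes (4.54%) had an opposite-preference region. Over 13 lists of genes of this tissue and of HNF4α biology, 14 of 219 genes did (6.39%). The lists of gastric and classical subtype, bile acid and nuclear receptors, drug metabolism, the circadian clock, and Wnt and stem cells had 0 genes each. The basal and squamous list, of genes that mark the squamous-like subtype of pancreatic cancer, had 4 of 17. Those 4 genes rested on 3 regions, since KRT5 and KRT6A, neighbouring keratin genes, shared one. Genes within 50 kb are neighbours and were not shown to be targets, and no list was tested.

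The shared keratin region lay inside KRT5, at chr12:52518398-52518902 and 1744 bp from its start. Its fold enrichment was 20.2 and 22.4 in BxPC3 P1-α2 and 8.77 and 12.1 in Panc10.05 P2-α8, higher in both BxPC3 libraries. A barred peak lay 2117 bp away. TRIM29, a gene of squamous epithelia, had its region 22.8 kb away at chr11:120160621-120161158, with 9.50 and 10.0 in BxPC3 and 15.5 and 18.8 in Panc10.05. The KRT5 region thus had its higher values in BxPC3 and the TRIM29 region in Panc10.05. The remaining gene of the list was LY6D, 43.7 kb from a region whose mean percentile was 45.9.

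The junctions and adhesion list had 2 of 21 genes (CDH3 and CLDN1), and the mesenchymal list 2 of 14 (CDH1 and SMAD3). CDH1 and CDH3, the E- and P-cadherin genes, shared a region inside CDH3 at chr16:68726210-68726790. It gave 12.4 and 9.17 in BxPC3 and 14.1 and 8.81 in Panc10.05, and a barred peak lay 832 bp from it. CLDN1, a tight junction gene, lay 37.6 kb from a region with fold enrichments of 8.51 to 12.02. In the growth control list (2 of 19 genes), TEAD1, a partner of YAP in the Hippo pathway, held a region inside the gene at chr11:12799531-12800398. It gave 13.6 and 15.3 in BxPC3 and 13.1 and 11.7 in Panc10.05 and was in 2 AsPC1 pan lists. MYC lay 12.9 kb from a region with 12.1 and 10.8 in BxPC3 and 13.9 and 7.83 in Panc10.05.

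Among the other lists, PPARA, the nuclear receptor of fatty acid oxidation, had a pair of regions within 50 kb. The stronger lay 3.01 kb from the gene at chr22:46147070-46147970, with 11.4 and 11.3 in BxPC3 and 19.9 and 13.6 in Panc10.05. ANPEP (an intestinal peptidase), SMAD3 (a TGF-β signal transducer) and PFKFB3 (a glycolytic regulator) had 1 region each, with fold enrichments from 7.12 to 14.9. A barred peak lay 787 bp from the SMAD3 region. None of the regions near PPARA, ANPEP, SMAD3 or PFKFB3 that are named here was in an AsPC1 pan-HNF4α list. The same held for 91.1% of the 570 regions and 73.2% of all merged regions.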

How the data were processed

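Libraries were mapped with Bowtie2 2.2.9 and peaks called with MACS2 2.2.7, per the submitters' processing notes, which list hg38 and mm10; the human lists are on hg38. Each deposited list holds 1 library. Fold enrichment is the authors' linear ratio of each peak, and p-values and q-values were deposited as −log10; they served only to rank or filter peaks within a list. Input libraries (14 of 32) were not used.

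Peaks overlapping by 1 bp were merged, and a recount with bedtools merge gave the same 68655 regions and 570 members; the merging was also tested on simulated data. Where a list had several peaks in a region, the strongest was taken. Percentiles are by fold enrichment within a list. Starts and promoter windows came from RefSeq (GRCh38.p14); the RefSeq gene table held 20033 protein-coding genes. Distances to starts leave out chromosome 8. Intervals are exact binomial. Python 3.11.15, pandas 2.3.3 and scipy 1.17.1 were used.

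The rule, gene lists and alternatives were chosen with earlier results of these data known. Named regions are the 10 strongest and 3 weakest by mean percentile, up to 6 at gene starts, up to 6 in all AsPC1 pan-HNF4α lists, up to 3 genes per gene list, and up to 5 genes with the most regions; regions in both sgP2 lists of the P1-specific antibody and mirror regions, also to be named, numbered 0. A few of the genes chosen in this way are not reported here.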

Additional observations from a re-analysis of the deposited data

How the results depend on the processing

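The 570 opposite-preference regions became 435 at a −log10 q of at least 20 (248 of the 570), 527 with no barred peak within 1 kb, 586.75 with reciprocal overlap of 50% and 500.5 with summits within 100 bp (means over the 4 required lists); the mirror count was 0, 0, 23.75 and 2.75. With lists equal within each line, the counts were 50 and 71 mirror regions by fold and 37 and 62 by −log10 p; with all 8 lists at the shortest length 37 and 38. At 8000 and 4000 peaks, settings chosen after seeing the data, they were 18 and 23, and 10 and 19. Leaving out each library in turn gave 649 to 1455 regions and 0 to 5 mirror regions; 943 were found without BxPC3 P1-α2 replicate 2, 1455 without Panc10.05 P1-α2 replicate 2 and 1048 without Panc10.05 P2-α8 replicate 2, as fewer lists then had to meet the rule. Of 50 named regions, 32 met the rule at a −log10 q of at least 20 and 3 at the shortest length of the 8 lists.

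In AsPC1, the sgP2 difference from sgNC turned to 0.439 percentage points without sgNC replicate 1, and ran from -3.07 to 0.439 as each of the 4 libraries was left out. At equal list length the differences of sgP1 and of sgP2 from sgNC were each -0.439, and the sgP1 minus sgP2 difference and that of the P1-specific antibody were 0. A replicate block left the differences as they were (-2.81, -1.32, -1.49 and 0.614 percentage points), with exact permutation p of 0.5, 1, 1 and 0.5 and a smallest possible p of 0.5. Same-numbered sgP2 and sgNC libraries deviated with a correlation of -0.20 over the regions, and the labels tie no numbers across genotypes.

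The share near a gene start was 20.3% within 10 kb, and the median summit distance 37 bp for the second replicates. The median percentile ran from 36.1 to 43.9 as each library was left out, within the spread between lists. The share of regions with an HNF4 motif was not run, since no genome sequence was used here. Read depth is unknown, so a missing peak is a peak not called and not a site shown to be empty.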
